A study of Mus musculus with 5 samples.

Results

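The 10 genes described here encode the steps that carry glucose into the cell and on to lactate, in the isoforms usually named for tumour tissue. They are Slc2a1, Gpi1, Pfkl, Aldoa, Tpi1, Pgk1, Pgam1, Eno1, Pkm and Ldha. They were taken by gene symbol from a deposited table of 22287 mouse genes, and all 10 symbols were found. The rule uses no measured value, although the list was drawn up with earlier results of these data known. Aldoa is listed under 2 Ensembl identifiers, so the 10 symbols gave 11 rows.

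The libraries came from liver tumours of C57BL/6 mice that had all been given the carcinogen DEN together with CCl4, which injures the liver, over 5 months. There were 3 libraries of the genotype lnc-CTHCC-/- (KO) and 2 of wild type (WT). lnc-CTHCC is the symbol of a long non-coding RNA gene. The labels give neither the age or sex of the mice nor the way the gene was deleted, and do not say whether the libraries of a genotype came from separate animals. P-values therefore measure the spread between these libraries, which may be technical. Genotypes are used as labelled, since lnc-CTHCC itself was not analysed here. Setting KO against WT asks what the loss of lnc-CTHCC changes in the tumour's transcripts.

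Glycolysis splits glucose into pyruvate, and lactate dehydrogenase then turns pyruvate into lactate. Many tumours run this route fast even where oxygen is present, and often use isoforms that the healthy adult organ uses little. The adult liver is unusual because hepatocytes also run the route backwards to make glucose, and have their own isoforms of several enzymes, among them Slc2a2 for uptake and Pklr for pyruvate kinase. Hypoxia-inducible factors and MYC are known to raise transcription of several of the 10 genes in tumour cells.

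ACGTG is a form of the core that hypoxia-inducible factors read, and MYC reads the E-box CACGTG. Both were searched, on both strands, in the 250 bases before each start that RefSeq lists on GRCm38.p6. Other forms of the core were not searched, so a gene without ACGTG may still hold the core. All 10 genes were found in RefSeq. ACGTG was present for 6 of the 10 genes (Slc2a1, Aldoa, Pgk1, Pgam1, Pkm and Ldha), and in 18.5% of all 27025 genes. A gene can have several starts, and by window it was present in 7 of the 16 of these genes and in 16.6% of all 32851. CACGTG, which contains ACGTG on both strands, was present for 1 of the 10, Ldha, and in 6.86% of all genes. A match in these letters is a description of the window and not a site of binding. The stretches of the genes with a match outside annotated exons are shown because they hold these letters in the sequence before a start. They run 5′ to 3′ in the direction of the gene, with the matches in capitals and 25 bases on either side where no exon or window end was reached.
Aldoa, chr7:126799351-126799405, minus strand: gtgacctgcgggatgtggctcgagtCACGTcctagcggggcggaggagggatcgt
Pgk1, chrX:106186925-106186998, plus strand: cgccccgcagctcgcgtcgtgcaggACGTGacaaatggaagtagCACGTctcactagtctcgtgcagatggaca
Pgam1, chr19:41911732-41911786, plus strand: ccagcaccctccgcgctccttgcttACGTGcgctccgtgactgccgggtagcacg
Ldha, far stretch, chr7:46845634-46845689, plus strand: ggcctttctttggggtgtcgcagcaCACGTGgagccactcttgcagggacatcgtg
Ldha, near stretch, chr7:46845731-46845799, plus strand: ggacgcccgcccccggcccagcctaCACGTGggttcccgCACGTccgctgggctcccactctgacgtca
Ldha was the only one of the 10 with the E-box, which it held in both stretches, and the near stretch held a further ACGTG core on the opposite strand. Pgk1 held ACGTG once on each strand. The Aldoa and Ldha stretches lie within the annotated span of the gene, outside its exons and before an internal start, and those of Pgk1 and Pgam1 lie upstream of the gene.

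Levels are in FPKM, a read abundance per unit of gene length and per library, and so can be compared between genes. The FPKM of a library summed to 526229 to 552619, and its depth is unknown. The WT libraries differed from each other on the whole table: the median gene lay 0.15 below its own mean on the log2(FPKM + 1) scale in WT 1 and 0.08 above it in WT 2. The KO libraries lay between -0.03 and 0.09 on that measure. Results are therefore also given without single libraries where that matters. Hepatocyte markers led by Alb were present in all libraries, with a summed 108600 to 109700 FPKM in KO and 127200 and 97400 FPKM in WT tumours. Markers of skeletal muscle, a tissue rich in some of the same glycolytic isoforms, summed to at most 0.19 FPKM in KO and 0.23 FPKM in WT tumours, with Myh4 and Tnnt3 listed at 0 throughout.

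The 10 genes spanned a wide range of levels, and no difference between genotypes passed the test. In bulk tumours such as these, fewer cells of a type and less RNA per cell cannot be told apart. Ldha was the most abundant, with a mean of 369 FPKM over the 5 libraries, and Slc2a1 the least, with 5.38 FPKM. The KO mean was above the WT mean for 6 of the 10 and below it for 4, where 61.4% of all genes tested had the higher mean in KO. None passed limma's test adjusted over all 10132 genes tested (adjusted p = 0.999 for each), where 0.00987% of all genes tested passed, in number 1. Their unadjusted p-values ran from 0.223 to 0.961, so that 0 of 10 were under 0.05, against 3.23% of all genes tested. The median log2 difference was 0.07 for the 10 genes and 0.05 for all genes tested. The 95% intervals of the single genes, which are not adjusted for their number, ran from -0.72 at the lowest to 0.80 at the highest, so none reached a doubling or a halving on this scale.

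**Figure D1:**
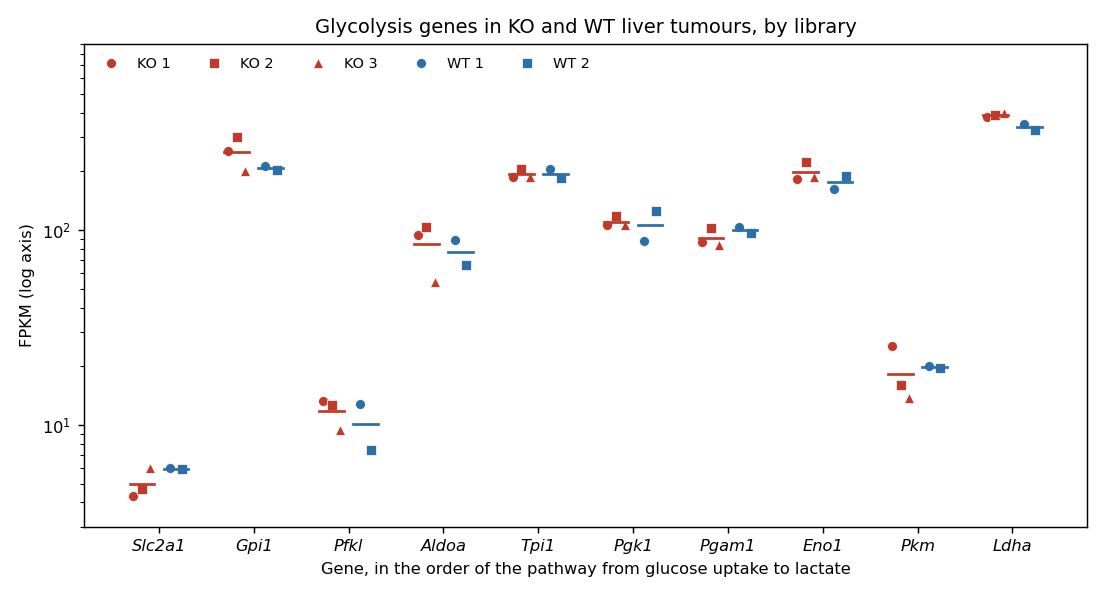
FPKM of the 10 glycolysis genes on a log axis, in pathway order, with KO in red and WT in blue. Each point is 1 library and each bar the mean of a genotype. Levels run from 4.34 FPKM (Slc2a1, KO 1) to 398 FPKM (Ldha, KO 3), and KO and WT points overlap for every gene except Ldha.

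In order of level, Ldha stood above all others in each library. Gpi1, Tpi1 and Eno1 followed with means of 234, 194 and 189 FPKM, and the ranges of neighbours in that order overlapped. Pgk1, Pgam1 and Aldoa formed a lower tier at 108, 94.5 and 81.5 FPKM, again with overlapping ranges between neighbours. Pkm at 18.9, Pfkl at 11.1 and Slc2a1 at 5.38 FPKM had ranges that did not touch their neighbours. Among the 10, the glucose transporter and the kinases of the irreversible steps were thus the low end, and the enzymes of reversible steps the high end. This depends on the isoform listed, since the hepatocyte isoforms Pklr and Slc2a2 had means of 100 and 47.8 FPKM. Gapdh, glyceraldehyde-3-phosphate dehydrogenase, which is outside the 10, was at 1071, 1454 and 1141 FPKM in KO and 1292 and 1088 FPKM in WT tumours, above all of them. The summed FPKM of the 10 genes was 1335, 1473 and 1248 in the KO libraries, or 0.254%, 0.274% and 0.235% of the library's sum. It was 1248 and 1224 in the WT libraries, or 0.226% and 0.231%. In share KO lay above WT by a small margin, while the summed FPKM of KO 3 equalled that of WT 1 to the nearest unit. The sum was not tested. Ldha and Gpi1 were its largest parts, and 4 of the 10 genes had the lower mean in KO.

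Slc2a1, the glucose transporter GLUT1 (ENSMUSG00000028645, chromosome 4, 119108711 to 119137983, plus strand), had 4.34, 4.68 and 5.98 FPKM in KO tumours and 5.98 and 5.94 FPKM in WT tumours. KO 1 and KO 2 were below both WT libraries, and KO 3 matched the higher of them. Its mean was 5.00 ± 0.866 FPKM (SD, n = 3) in KO and 5.96 ± 0.0283 FPKM (SD, n = 2) in WT tumours. The log2 difference of -0.22 (SE 0.195, 95% interval -0.67 to 0.22) was the lowest of the 10 and did not pass the limma test (adjusted p = 0.999).

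Gpi1, glucose-6-phosphate isomerase (chromosome 7, 34201330 to 34230336, minus strand), had 255, 299 and 201 FPKM in KO and 212 and 204 FPKM in WT tumours. KO 3 was the lowest of the 5 libraries and KO 2 the highest, so the genotypes overlapped. Its log2 difference of 0.26 (SE 0.196, 95% interval -0.19 to 0.70) was the highest of the 10, and was 0.12 without KO 2 and 0.41 without KO 3.

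Pfkl, the liver-type subunit of phosphofructokinase, which commits sugar to glycolysis (chromosome 10, 77986947 to 78010083, minus strand), had 13.2, 12.7 and 9.46 FPKM in KO and 12.8 and 7.42 FPKM in WT tumours. WT 2 was the lowest library and WT 1 stood among the KO values, so its highest value was 1.78 times its lowest. The log2 difference was 0.23 (SE 0.251, 95% interval -0.34 to 0.80). Without WT 2 it was -0.13, against 0.59 without WT 1, and it passed in neither.

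Aldoa, aldolase A, which splits fructose bisphosphate into 2 triose phosphates (ENSMUSG00000030695, chromosome 7, 126795234 to 126800751, minus strand), had 94.4, 104 and 54.3 FPKM in KO and 88.6 and 66.3 FPKM in WT tumours. It spanned the widest range of the 10, with a highest value 1.92 times the lowest, and KO 3 and WT 2 were its low libraries. Its log2 difference was 0.08 (SE 0.280, 95% interval -0.56 to 0.72), and was -0.12 without WT 2, -0.03 without KO 1 and -0.10 without KO 2. The other Aldoa row (ENSMUSG00000114515, chromosome 7, 126800790 to 126809108, minus strand) was listed at 0.05 FPKM in KO 1 and 0 in the other libraries. It was below the expression filter of a mean of 1 FPKM and was not tested.

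Tpi1, triosephosphate isomerase (chromosome 6, 124810586 to 124814296, minus strand), had 188, 205 and 188 FPKM in KO and 205 and 184 FPKM in WT tumours. It varied least of the 10, with a highest value 1.11 times the lowest. Its log2 difference was -0.0079 (SE 0.158, 95% interval -0.37 to 0.35), which turned positive, at 0.018, after rescaling to a common sum.

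Pgk1, phosphoglycerate kinase, which makes the first ATP of the pathway (chromosome X, 106187100 to 106203699, plus strand), had 106, 117 and 106 FPKM in KO and 88.0 and 124 FPKM in WT tumours. Both the lowest and the highest library were WT, with KO between them. Its log2 difference was 0.07 (SE 0.189, 95% interval -0.36 to 0.50), and was -0.18 without WT 1.

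Pgam1, phosphoglycerate mutase (chromosome 19, 41911923 to 41918660, plus strand), had 86.7, 102 and 84.1 FPKM in KO and 103 and 96.7 FPKM in WT tumours. KO 1 and KO 3 were below both WT libraries and KO 2 was between them. The log2 difference was -0.14 (SE 0.165, 95% interval -0.51 to 0.24).

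Eno1, alpha-enolase (chromosome 4, 150236721 to 150248879, plus strand), had 182, 224 and 187 FPKM in KO and 162 and 188 FPKM in WT tumours. WT 1 was the lowest library and WT 2 exceeded KO 1 and KO 3. The log2 difference was 0.17 (SE 0.173, 95% interval -0.22 to 0.56), and was 0.0646 without WT 1 and 0.0765 without KO 2. Its retrogene copy Eno1b stayed at or below 0.19 FPKM in KO and 0.44 FPKM in WT tumours.

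Pkm, the pyruvate kinase gene that makes the M1 and M2 forms by splicing (chromosome 9, 59656368 to 59679375, plus strand), had 25.3, 16.1 and 13.7 FPKM in KO and 20.1 and 19.5 FPKM in WT tumours. The KO libraries lay on both sides of the WT libraries, which nearly coincided. Its log2 difference was -0.15 (SE 0.249, 95% interval -0.72 to 0.42), and was 0.026 without KO 3 and -0.40 without KO 1. A value per gene does not separate the spliced forms. Macrophages and bile duct cells also use Pkm. Macrophage markers summed to 148, 75.7 and 146 FPKM in KO and 101 and 141 FPKM in WT tumours. The 6 cholangiocyte markers summed to 334, 154 and 348 FPKM in KO and 150 and 423 FPKM in WT tumours. Nearly all of this was Spp1 alone, at 327, 149 and 344 FPKM in KO and 146 and 418 FPKM in WT tumours. The cholangiocyte sum therefore follows that gene and does not show the other markers. The part of these cells in the Pkm values was not tested.

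Ldha, lactate dehydrogenase A, which turns pyruvate into lactate (ENSMUSG00000063229, chromosome 7, 46841475 to 46855627, plus strand), had 381, 388 and 398 FPKM in KO and 350 and 327 FPKM in WT tumours. All 3 KO libraries were above both WT libraries, as for no other of the 10 genes. Its mean was 389 ± 8.52 FPKM (SD, n = 3) in KO and 339 ± 15.8 FPKM (SD, n = 2) in WT tumours, a ratio of 1.15. The log2 difference of 0.20 (SE 0.154, 95% interval -0.15 to 0.55) did not pass the limma test (unadjusted p = 0.223, adjusted p = 0.999). Genotypes that did not overlap, whichever was higher, made up 15.1% of all genes tested and 1 of these 10. Reads of Ldha, Pgk1 and Pgam1 may be shared with their processed pseudogenes, so their values are uncertain to that extent.

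In the authors' deposited table, none of the 10 genes has a false discovery rate under 0.05, where 0.162% of all its genes do. The log2 fold changes in the authors' deposited table run from -0.25 for Slc2a1 to 0.28 for Gpi1 over the 10 rows tested here, and the rate is 0.9999 for each. Both tests use the same 5 libraries.

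The list is named for isoforms typical of tumour tissue, and its member was the main isoform at some steps and not at others. None of the libraries is of non-tumour liver, so whether the main isoform is typical of the tumour was not tested. At glucose uptake and at pyruvate kinase the hepatocyte isoform was by far the more abundant. Slc2a2, the hepatocyte glucose transporter GLUT2, had 47.4, 45.0 and 44.9 FPKM in KO and 31.6 and 70.0 FPKM in WT tumours. Slc2a1 made up 8.38%, 9.42% and 11.8% of the pair in KO and 15.9% and 7.82% in WT tumours. Pklr, the pyruvate kinase of liver and red cells, had 79.9, 108 and 116 FPKM in KO and 72.9 and 124 FPKM in WT tumours. Pkm was 24.0%, 13.0% and 10.6% of the pair in KO and 21.6% and 13.6% in WT tumours. Slc2a2 and Pklr did not pass the test, and both were lowest in WT 1 and highest in WT 2.

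Phosphofructokinase, phosphoglycerate mutase, enolase and lactate dehydrogenase had the member as the main isoform. Pfkl was 55.1%, 61.9% and 68.1% of the phosphofructokinase sum in KO and 61.0% and 57.5% in WT tumours. Of its partners, Pfkm, the muscle type, had 2.77 to 3.59 FPKM in KO and 3.02 and 3.77 FPKM in WT tumours. Pfkp, the platelet type, had 7.18, 4.83 and 1.66 FPKM in KO and 5.19 and 1.72 FPKM in WT tumours. Eno1 made up 99.45% to 99.61% of the enolase sum, beside Eno2 and Eno3. Ldha made up at least 99.6% of the sum with Ldhb, and Pgam2, the muscle mutase, was listed at 0 in all libraries. Ldhb, at 1.40, 0.89 and 0.92 FPKM in KO and 0.61 and 0.62 FPKM in WT tumours, was below the filter.

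**Figure D2:**
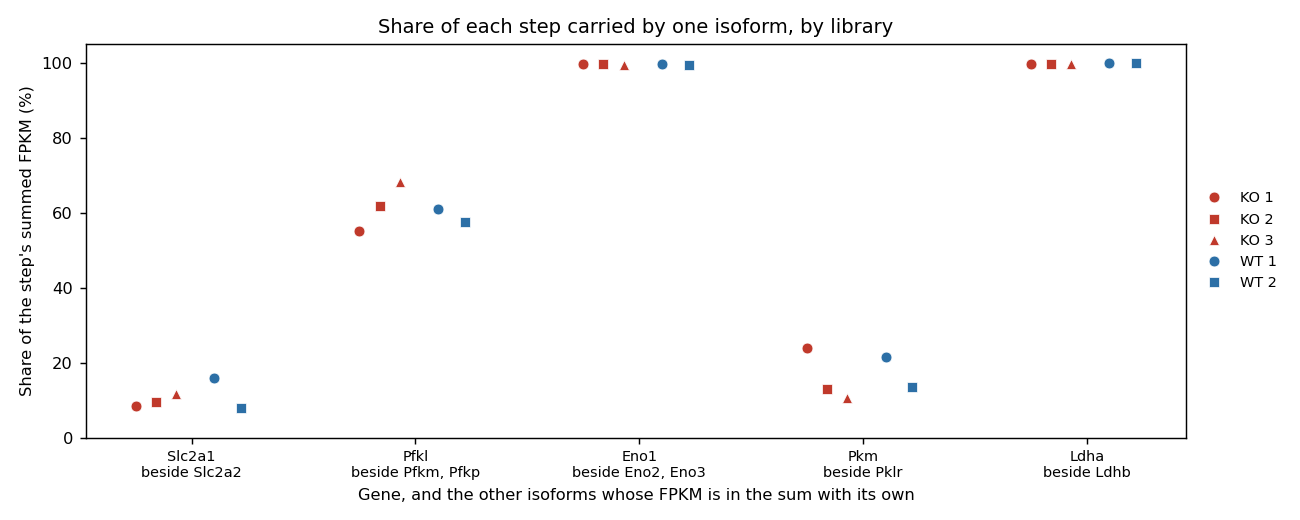
Share, in percent, of the named gene in the summed FPKM of that gene and the isoforms written under it, with KO in red and WT in blue and 1 point per library. For Slc2a1 the sum held Slc2a2 and no other glucose transporter. Slc2a1 stayed at 7.82% to 15.9% and Pkm at 10.6% to 24.0%, whereas Eno1 and Ldha lay near the top of the axis.

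None of the 6 shares given here (Slc2a1, Pfkl, Pgam1, Eno1, Pkm and Ldha) passed between genotypes in an exact permutation test of 3 against 2 libraries (two-sided, p = 0.3 to 1, adjusted over 7 shares p = 1). The smallest p that this design can give is 0.1, so the test could not have passed 0.05. The share of Slc2a1 was 9.85% ± 1.73 (SD, n = 3) in KO and 11.9% ± 5.72 (SD, n = 2) in WT tumours. The share of Pkm was 15.9% ± 7.18 (SD, n = 3) in KO and 17.6% ± 5.66 (SD, n = 2) in WT tumours. In both, the libraries of 1 genotype differed from each other by more than the genotype means did.

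**Figure D3:**
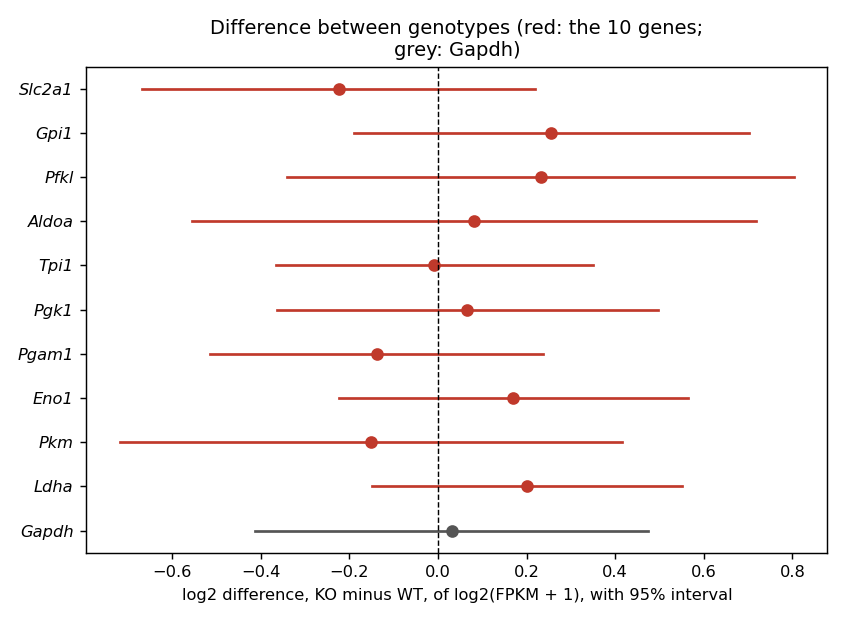
Differences between KO and WT as log2(FPKM + 1), with 95% intervals from limma, for the 10 genes in red and for Gapdh in grey. The intervals of all 10 genes and of Gapdh cross 0.

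Hk2, the hexokinase often raised in tumours, which acts just before Gpi1, was below the filter at 0.73, 0.68 and 0.40 FPKM in KO and 0.65 and 0.60 FPKM in WT tumours.

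The rest of the pathway was described by lists, in which no gene passed the test adjusted over all genes in either direction. Among 9 allosteric and protein regulators tested, 5 were higher and 4 lower in KO (median log2 difference 0.02). Arrdc4, an arrestin that promotes the removal of glucose transporters, was at -0.46, Tigar, a phosphatase that lowers fructose-2,6-bisphosphate, at 0.29 and Pfkfb3, which makes it, at 0.27, as log2 differences. That of Pfkfb3 was -0.0842 without WT 2. Of 9 gluconeogenesis genes, 3 were higher and 6 lower (median -0.15). The log2 difference was -0.79 for Pck1, the cytosolic enzyme that starts the route from oxaloacetate, and 0.33 for Pck2, its mitochondrial form. That of Pck1, at 91.3, 263 and 441 FPKM in KO and 312 and 466 FPKM in WT tumours, was -0.16 without KO 1. Got1 and Mdh1, which shuttle oxaloacetate out of mitochondria, were at -0.64 and -0.20, and at -0.0409 and -0.0562 without WT 2.

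Of 16 genes for the fate of pyruvate and lactate, 9 were higher and 7 lower (median 0.05). The log2 differences were -0.47 and -0.34 for Pdhx and Pdhb, parts of the pyruvate dehydrogenase complex, and -0.31 for Pdk2, a kinase that inhibits it. Without WT 2 they were -0.0577 for Pdhx, 0.23 for Pdhb and -0.0285 for Pdk2. Gpt2, which interconverts pyruvate and alanine, was at 0.25, and at 0.0353 without WT 1. Of 23 genes of side branches, 9 were higher and 14 lower (median -0.04), and 2 of them, both lower, had an unadjusted p under 0.05, as had 1.45% of all genes tested in that direction. These were Gpd1, cytosolic glycerol-3-phosphate dehydrogenase, with a log2 difference of -0.52, and Phgdh, which starts serine synthesis, with -0.70. That of Phgdh was -0.26 without WT 1 and -1.15 without WT 2. Gpd1 had 52.8, 56.9 and 61.3 FPKM in KO and 87.6 and 76.3 FPKM in WT tumours, without overlap. Khk, fructokinase, was at -0.32, and at 0.0557 without WT 2. Psat1, a later enzyme of serine synthesis, was at -0.53, and at 0.17 without WT 1.

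The regulators of glycolysis gene transcription had 11 higher and 6 lower of 17 tested (median 0.08), 2 of them, both higher, with an unadjusted p under 0.05, against 1.78% of all genes tested in that direction. Myc had 13.5, 10.7 and 5.87 FPKM in KO and 3.74 and 6.45 FPKM in WT tumours, so KO 3 was within the WT range, and the log2 difference was 0.82 (limma adjusted p = 0.999), or 0.50 without WT 1. Epas1, hypoxia-inducible factor 2 alpha, had 63.0, 63.7 and 61.5 FPKM in KO and 50.0 and 45.6 FPKM in WT tumours, without overlap, and a log2 difference of 0.39 (limma adjusted p = 0.999). Hif1a, hypoxia-inducible factor 1 alpha, had 9.54, 8.16 and 9.76 FPKM in KO and 6.36 and 12.1 FPKM in WT tumours. Its log2 difference was 0.04. Epas1 and, lower in KO, Mlx (log2 difference -0.19) were the list's genes without overlap, as were 15.1% of all genes tested in either direction. Trp53 was at 0.32, and at -0.0207 without WT 2. Sp1 was at 0.24, and at 0.0576 without WT 1. Of 15 hypoxia-inducible genes outside glycolysis, 9 were higher and 6 lower (median 0.14), and 4 were higher without overlap, as were 9.78% of all genes tested. Adm, the vasodilator adrenomedullin, at 1.97, 1.42 and 1.37 FPKM in KO and 0.69 and 0.87 FPKM in WT tumours, had a log2 difference of 0.53 and the 1 unadjusted p under 0.05 of that list. It passed the filter of a mean of 1 FPKM only through KO, with means of 1.59 FPKM in KO and 0.78 FPKM in WT tumours. That p is therefore not read as support. Bnip3 and Bnip3l, mitophagy receptors, were at 0.36 and 0.30, and Vegfa, the angiogenic growth factor, at 0.40. Bnip3l was at 0.0853 without WT 1. Endothelial markers, which belong to cells that use Epas1 and Adm, summed to 81.7, 51.3 and 62.2 FPKM in KO and 54.6 and 48.3 FPKM in WT tumours. Their part in these values was not tested.

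**Figure D4:**
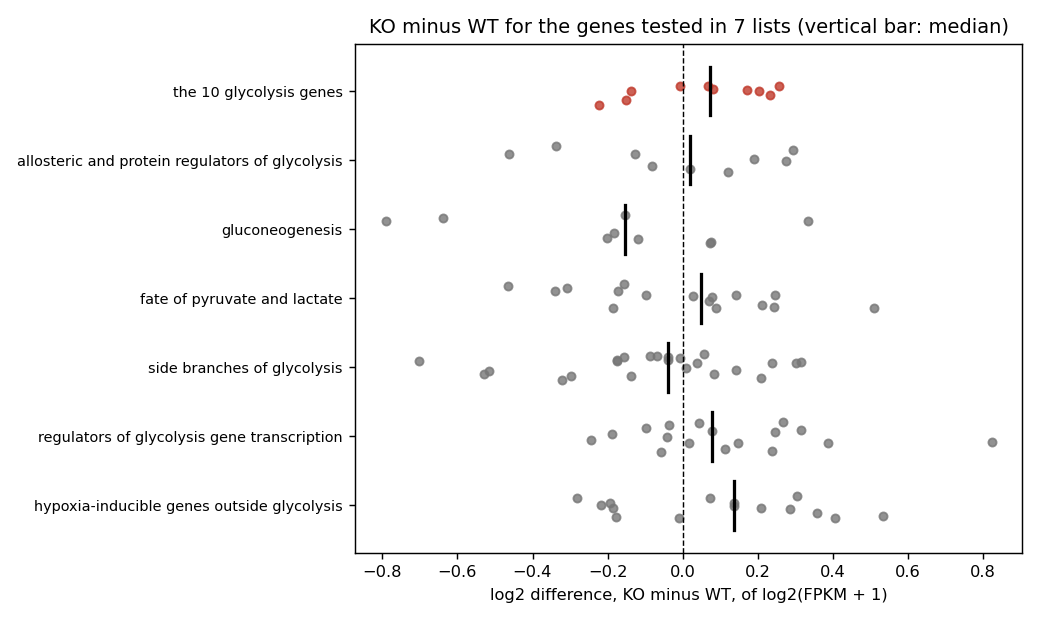
The log2 difference, KO minus WT, of every gene tested in the 10 and in 6 lists of related genes, 1 point per gene, with the median as a vertical bar. The 10 glycolysis genes lie between -0.22 and 0.26 and the medians of the lists between -0.15 and 0.14.

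Across libraries rather than genotypes, the 10 genes were high or low together only in part. The median of their deviations from each gene's own mean, on the log2(FPKM + 1) scale, was 0.01, 0.12 and -0.10 in KO. It was 0.10 and -0.03 in WT tumours. For all genes tested this median was 0.09, -0.0037 and -0.03 in KO and -0.15 and 0.08 in WT tumours. KO 2 held the highest value of 3 genes and the lowest of none, while KO 3 held the highest of 2 and the lowest of 4. KO 3 shared 1 of its highest values, Slc2a1, with WT 1. With that tie, WT 1 was the highest for 3 genes and the lowest for 2, and WT 2 the highest for 1 and the lowest for 3. The 4 genes outside the lists whose pattern was nearest to the mean pattern of the 10 were Rpl41, Sec61a1, Mfsd5 and Eif4a3, by Euclidean distance of centred log2(FPKM + 1) values over 5 libraries (0.025 to 0.040). Their log2 differences between KO and WT were 0.02 to 0.06, which follows from choosing them by that pattern. The mean pattern itself ran from 0.13 in KO 2 to -0.13 in KO 3, so it was not flat across libraries.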

How the data were processed

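RNA was sequenced from 3 KO and 2 WT liver tumour libraries, grouped by sample title. Per the file headers, the authors deposited FPKM for each library, rounded to 2 decimals, and a mean FPKM for each genotype. They also deposited a log2 fold change, a p-value and a false discovery rate for every gene. HISAT2, StringTie, bcl2fastq 2.0, limma, DESeq2 and the build mm10 are named by the submitters' processing notes, without role or order. Nothing is stated there of the annotation, the strand setting or the tool behind the p-values. FPKM carry no library totals, so no count model was used. Coordinates, 1-based, are from GENCODE vM21 (GRCm38, the assembly of mm10), and promoter sequences from RefSeq (GRCm38.p6).

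Genes with a mean of at least 1 FPKM were tested with limma 3.58.1 in R 4.3.3 on log2(FPKM + 1), with an empirical Bayes trend, two-sided, 3 residual degrees of freedom, and Benjamini-Hochberg adjustment over all genes at 0.05. This scale understates changes of low genes. The code was tested on simulated data. The members and gene lists were chosen with earlier results of these data known. Named were the members, the most abundant other isoform of each step, Gapdh, up to 4 genes per list by unadjusted p and the 4 nearest patterns. Pfkm, Hk2, Hif1a, Mlx and Eno1b, and the genes of the other observations, were named after their values were seen. Some results that this rule names are not reported here. Alternatives were 2 pseudocounts, 2 filters, 3 scalings, a replicate block and leaving out each library.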

Additional observations from a re-analysis of the deposited data

How the results depend on the processing

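No member passed the threshold in any of the 13 alternatives (lowest limma adjusted p = 0.455), with 0 members past it in each. Unadjusted, 0 members were under 0.05 in the main fit, against 3.23% of all genes tested, and 0 in each alternative that kept both WT libraries. The log2 differences of the members stayed between -0.40 and 0.59 over the alternatives, and 5 of the 10, Slc2a1, Gpi1, Pgam1, Eno1 and Ldha, kept their sign in all of them. The number of genes past the threshold in the whole table was 1, and 0 by limma under each of quantile normalization, median-ratio rescaling, a common sum, no filter, a filter at a mean of 5 FPKM and a pseudocount of 5. It ran from 0 to 17 with 1 library left out, 17 being without WT 1, and was 62 with the replicate block. The unadjusted count was 327, and 167 to 1144 over the alternatives. With the block Pck1 passed (log2 difference -1.29, adjusted p = 0.000314). The block leaves 1 residual degree of freedom and gives KO 3 a level of its own. Leaving out a WT library leaves 1, assumed to vary like KO. The numbers pair nothing that the labels name: deviations from the genotype means correlated at 0.0884 for number 1 and at -0.241 for number 2 across 10132 genes. The cause of these changes was not tested.

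With 1 library left out, the log2 difference ranged from -0.13 to 0.59 for Pfkl, -0.12 to 0.37 for Aldoa, -0.0857 to 0.0698 for Tpi1, -0.18 to 0.31 for Pgk1 and -0.40 to 0.03 for Pkm. Among other named genes it ranged from -0.60 to 0.52 for Slc2a2, -0.30 to 0.89 for Pfkp, -0.31 to 0.45 for Pklr, -0.10 to 0.15 for Gapdh and -0.0842 to 0.63 for Pfkfb3. It was -0.91 to 0.23 for Pdhb, -0.70 to 0.0557 for Khk, -1.23 to 0.17 for Psat1, -0.0207 to 0.65 for Trp53, -0.0222 to 0.10 for Rpl41, -0.03 to 0.0889 for Eif4a3 and -0.0340 to 0.11 for Mfsd5. The median of the members ranged from -0.11 (without WT 2) to 0.14, where that of all genes ranged from -0.07 (without WT 1) to 0.16 (without WT 2).

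The replicate block turned Tpi1 (0.013), Pkm (0.026) and Pklr (-0.033). Rescaling to a common sum turned Tpi1 (0.018), and median-ratio rescaling turned Gapdh (-0.029), Rpl41 (-0.032), Eif4a3 (-0.039) and Mfsd5 (-0.026). The share of Pfkl, KO minus WT, was -2.10 points with Pfkp as the only other isoform, against 2.48. With 1 library left out the shares differed by -6.05 to 2.03 points for Slc2a1, -0.72 to 5.77 for Pfkl, -0.0760 to 0.0872 for Eno1 and -5.85 to 2.24 for Pkm. FPKM give no depth, so counting error is unknown, and with 3 against 2 libraries the members' 95% intervals reached a median of 0.44 to either side.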

Other observations

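Several genes of carbohydrate metabolism set KO 3 and WT 2 apart from KO 1, KO 2 and WT 1, across the genotypes. They were picked after their values were seen and are given without a test or the share of all genes with this split. Not all genes of the same lists followed it. Ndrg1, for example, had 4.55, 2.46 and 3.07 FPKM in KO and 3.03 and 4.93 FPKM in WT tumours. Aldoa and Pfkl were lowest in KO 3 and WT 2, and Pfkp (7.18, 4.83 and 1.66 FPKM in KO, 5.19 and 1.72 FPKM in WT tumours) had the same low libraries. So did Pfkfb3, which raises fructose-2,6-bisphosphate, at 8.25, 9.29 and 4.57 FPKM in KO and 7.58 and 4.22 FPKM in WT tumours. G6pdx, the first enzyme of the pentose phosphate pathway, had 9.85, 13.3 and 7.07 FPKM in KO and 10.9 and 5.44 FPKM in WT tumours. Ankrd37, a hypoxia-inducible gene, had 3.38, 2.24 and 0.16 FPKM in KO and 3.65 and 0.15 FPKM in WT tumours.

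G6pc, the glucose-6-phosphatase that releases glucose from hepatocytes, ran the other way, with 7.77, 8.69 and 31.1 FPKM in KO and 5.86 and 35.6 FPKM in WT tumours. Pdk4, the pyruvate dehydrogenase kinase raised by fasting, had 2.24, 11.3 and 15.8 FPKM in KO and 1.69 and 13.1 FPKM in WT tumours, so KO 2 stood with the high libraries. Erythroid markers summed to 773, 698 and 476 FPKM in KO and 733 and 362 FPKM in WT tumours, low in the same libraries as Aldoa. Their part in the pattern was not tested.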
